A study of Mus musculus with 8 samples.

Results

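The genes described here are the transcriptional end of the Hippo pathway: the coactivators YAP (Yap1) and TAZ (Wwtr1), their DNA-binding partners Tead1, Tead2, Tead3 and Tead4, and 4 of their targets, Ctgf, Cyr61, Ankrd1 and Amotl2. They were chosen by symbol, and all 10 are listed among the 17441 genes of the authors' deposited table. RNA was sequenced from primary mouse embryonic fibroblasts, connective tissue cells put into culture, from embryos at embryonic day 18, after 2 passages. A set of 2 libraries came from wild-type littermates and a set of 2 from embryos with a targeted deletion of Cbx2 (Cbx2-/-), a chromodomain subunit of polycomb repressive complex 1. About 200000 cells went into each library and about 4.62 Gb of sequence came from each. Whether libraries of the same genotype derive from different embryos is not stated in the labels, so that p-values may measure technical spread alone. ATAC-seq libraries of the same genotypes were not analysed here.

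YAP and TAZ carry no DNA-binding domain and act on genes through the TEAD factors. When the Hippo kinases MST1/2 (Stk4 and Stk3) and LATS1/2 are active, YAP and TAZ are phosphorylated, held in the cytoplasm and degraded. Fibroblasts spread on stiff culture plastic are a setting in which YAP and TAZ are known to be largely nuclear, and Ctgf and Cyr61 are the targets most often read as a measure of that activity. Regulation at the level of phosphorylation and localisation leaves no direct trace in the RNA level of Yap1 or Wwtr1.

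TEAD factors recognise the letters GGAATG, or CATTCC on the other strand. The start-site windows show where these letters lie in the genes under study, so they are given first. RefSeq windows of GRCm38.p6, from 250 bases before to 50 after a start site, were matched for 7 of the 10 genes, namely Yap1, Wwtr1, Tead2, Tead3, Cyr61, Ankrd1 and Amotl2. The element was found on either strand in 6 of these 7, all but Tead2, against 16.6% of the 27025 genes with such a window and 14.7% of the 32851 windows. Genes with more windows have more chances of a match, and Tead3 has 3 windows and Wwtr1 has 2. The bases before the start sites of Cyr61 and Ankrd1 are printed whole because both are known as direct targets, and the other 4 genes are shown by a stretch of 30 bases around the element. Capitals mark the element. All are written 5′ to 3′ in the direction of the gene.
Cyr61 (chr3:145649986-145650235, minus strand): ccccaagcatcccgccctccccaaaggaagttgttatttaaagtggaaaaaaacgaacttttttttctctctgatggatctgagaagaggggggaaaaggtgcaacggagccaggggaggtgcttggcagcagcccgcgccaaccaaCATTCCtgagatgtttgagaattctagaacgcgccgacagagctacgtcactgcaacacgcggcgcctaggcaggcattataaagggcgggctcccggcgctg
Ankrd1 (chr19:36119845-36120094, minus strand): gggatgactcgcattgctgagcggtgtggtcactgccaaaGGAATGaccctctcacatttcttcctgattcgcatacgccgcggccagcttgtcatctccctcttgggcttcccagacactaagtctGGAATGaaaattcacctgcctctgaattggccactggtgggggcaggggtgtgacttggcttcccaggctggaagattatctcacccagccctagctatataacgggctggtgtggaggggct
Amotl2 (chr9:102717727-102717756, plus strand): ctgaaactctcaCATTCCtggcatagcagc
Yap1 (chr9:8004720-8004749, minus strand): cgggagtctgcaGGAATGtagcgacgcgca
Wwtr1 (chr3:57576029-57576058, minus strand): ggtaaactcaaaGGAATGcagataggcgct
Tead3, first window (chr17:28350970-28350999, minus strand): gacgacgagcgaGGAATGgggtgcgcggga
Tead3, second window (chr17:28350697-28350726, minus strand): gctCATTCCgtaCATTCCggccatccccct

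The element began 103 bases before the start site in Cyr61 and 65 bases before the start site of the Amotl2 window. The Amotl2 window begins at 102717554, inside the annotated gene, which begins at 102717091. Its start site is thus an internal one, and the element lies within the gene. Ankrd1 held 2 copies, at 210 and 123 bases before the start. In Yap1 it began 141 bases before the start, so that the gene of the coactivator has the letters its own partners recognise. The single copy of Wwtr1 lay 136 or 170 bases before the start, depending on the start site used. The second window of Tead3 held 3 copies, of which the pair printed above lies 123 and 114 bases before that start. That pair also lies within the annotated gene, which on its minus strand begins at 28350805. Of other elements, neither the AP-1 letters TGANTCA, found in 7.81% of all windows, nor a CArG box, the site of the serum response factor SRF, found in 1.63%, was present in any of the windows of these 7 genes. A match of letters is a description of the window and not evidence that a factor binds there.

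In the authors' deposited table each gene has 1 normalised read value per genotype, the log2 ratio of the 2 values as its fold change, and a p-value from the authors' DESeq2 comparison. All values, fold changes and p-values of single genes below are from that table. Values of single libraries are not given, so no SD can be printed and overlap between libraries cannot be judged. A standard error was implied for each fold change from its deposited p, and 95% intervals were made from it. A call means an adjusted p under 0.05 over all 17441 genes in that table. The values sum to 19428299 in wild type and 18910077 in knockout, and the median log2 change of all genes was 0.0036. The targeted gene was low as labelled: the authors' deposited table gives 346.8 for wild-type and 29.0 for knockout Cbx2 (log2 fold change -3.58 ± 0.25, implied SE; DESeq2 adjusted p 2.55e-44). Of 10 fibroblast markers, all were at or above the median level of 230 and 7 fell while Thy1 rose. Summed macrophage markers went from 642 to 1852 with 8 of 10 higher. Lyz2 (147.8 to 947.4) made the largest part of that rise, and Csf1r (244.6 to 257.0) and Ptprc were not called. Endothelial markers went from 178 to 684 through Cdh5 (61.6 to 323.8) and Esam (35.6 to 290.2), the 2 of 8 called higher. Pecam1, Tie1 and Emcn were under 5, and Kdr (60.7 to 48.2), Tek and Erg were not called. Epithelial markers went from 368 to 93.1, through Krt8 and Krt18, with the other 5 tested under 5, and striated muscle markers from 2115 to 1068, nearly all of it Des. In these bulk libraries fewer cells of a type and less RNA per cell cannot be told apart, and the part of such cells in the results below was not tested.

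Most YAP/TAZ-TEAD genes differed little in RNA level between the genotypes. Of the 10 genes 2 rose, Tead4 by 56.8% and Ctgf by 7.41%, and none fell. Over all genes 7.78% were called, 3.48% higher and 4.3% lower. Among the 8721 genes whose mean reached the median, where all 10 lie, 11.8% were called, 4.66% higher and 7.1% lower. The count of 2 in 10 is near that background and is not read as a result about the set. For the 8 genes not called, the 95% intervals of the knockout to wild-type ratio lie between 0.76 and 1.14. The median log2 fold change of the 10 genes was -0.028, against -0.011 for all genes at or above the median level. Their median absolute change was 0.056, against 0.083 for those genes. By the authors' own up and down marks, which also require a 2-fold change, none of the 10 was changed.

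**Figure D1:**
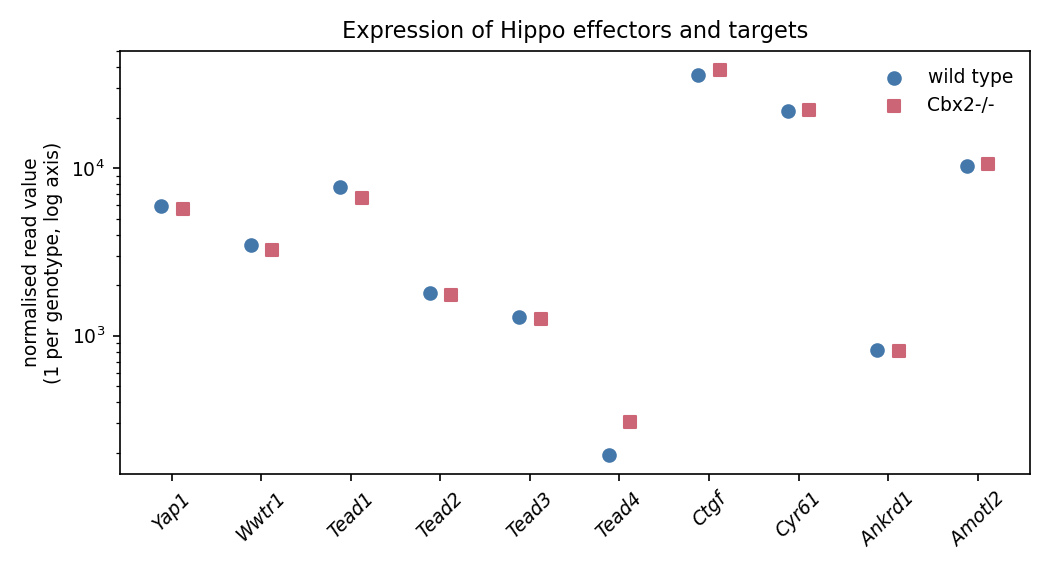
Normalised read value of each gene in wild type (circles) and Cbx2-/- fibroblasts (squares), on a log axis, 1 value per genotype from the authors' deposited table. Tead4 shows the widest gap, from 194 to 305, followed by Tead1, with 7696 and 6614.

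The coactivators were both expressed and neither passed the test. Yap1 (gene 22601, chromosome 9 from 7931999 to 8004638 in GRCm38.p6) stood at 5982 in wild-type and 5733 in knockout cells, per the authors' deposited table. The log2 fold change of Yap1 was -0.061 ± 0.046 (implied SE; DESeq2 adjusted p 0.722), and the 95% interval of the ratio ran from 0.90 to 1.02. Wwtr1 (gene 97064, chromosome 3 from 57455644 to 57575910), which encodes TAZ, had values of 3464 and 3233 there. The log2 fold change of Wwtr1 was -0.099 ± 0.055 (implied SE; DESeq2 adjusted p 0.418), with an interval of 0.87 to 1.01. Both point estimates lie slightly below 1, and both intervals include it. A pseudogene annotated within Wwtr1, Gm16016, was not analysed here. Divided by the deposited transcript length, to set genes side by side, Yap1 stood at 1434 per kb and Wwtr1 at 727 per kb in wild type. YAP RNA was thus 1.97 times TAZ RNA per length in wild type and 2.03 times in knockout.

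Among the TEAD factors, the least expressed one was the one that rose. Tead4 (gene 21679, chromosome 6 from 128227143 to 128300813), known for its role in the first lineage choice of the embryo and in muscle, went from 194 in wild-type to 305 in knockout cells, per the authors' deposited table. The log2 fold change of Tead4 was 0.65 ± 0.17 (implied SE; DESeq2 adjusted p 0.0029), a ratio of 1.57 with a 95% interval from 1.24 to 1.98. Its absolute change exceeded that of 97.8% of the genes at or above the median level. The mean of Tead4 lies at percentile 51.1 of the table, at the low end of those genes. That rank was not matched for level or for standard error. Tead1 (gene 21676, chromosome 7 from 112679356 to 112906784), the family member most used in heart and muscle, had values of 7696 and 6614 in the authors' deposited table. The log2 fold change of Tead1 was -0.22 ± 0.087 (implied SE), with an unadjusted DESeq2 p of 0.0121 and an adjusted p of 0.123, so that it did not pass. The 95% interval of its ratio, from 0.76 to 0.97, is not adjusted for the number of genes.

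Tead2 (gene 21677, chromosome 7 from 45215792 to 45233468), typical of embryonic tissue, had values of 1803 and 1741 in the authors' deposited table, with a 95% interval of the ratio from 0.88 to 1.06 (DESeq2 adjusted p 0.931). Tead3 (gene 21678, chromosome 17 from 28331671 to 28350805), known from placenta, had values of 1296 and 1255, with an interval of 0.87 to 1.08 (DESeq2 adjusted p 0.931). The interval of Tead4 lies wholly above those of the other 3 factors. A test of the difference between genes was not run, since they share libraries.

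Per kb of transcript, Tead2 and Tead1 were the main TEAD transcripts of these fibroblasts. In wild type they stood at 852 and 787 per kb, Tead3 at 497 and Tead4 at 64.1. In knockout the values per kb were 823 for Tead2, 677 for Tead1, 482 for Tead3 and 100.5 for Tead4. The share of Tead4 in the sum of the 4 went from 2.91% to 4.83%, that of Tead1 from 35.8% to 32.5%. Tead2 exceeded Tead4 13.3 times in wild type and 8.19 times in knockout. The sum over the 4 factors was 2201 per kb in wild type and 2082 in knockout, and the sum of Yap1 and Wwtr1 was 2161 and 2053. The ratio of TEAD to YAP/TAZ transcripts was 1.02 in wild type and 1.01 in knockout. These sums and shares have no error, since each rests on 1 value per genotype and on 1 transcript length per gene.

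**Figure D2:**
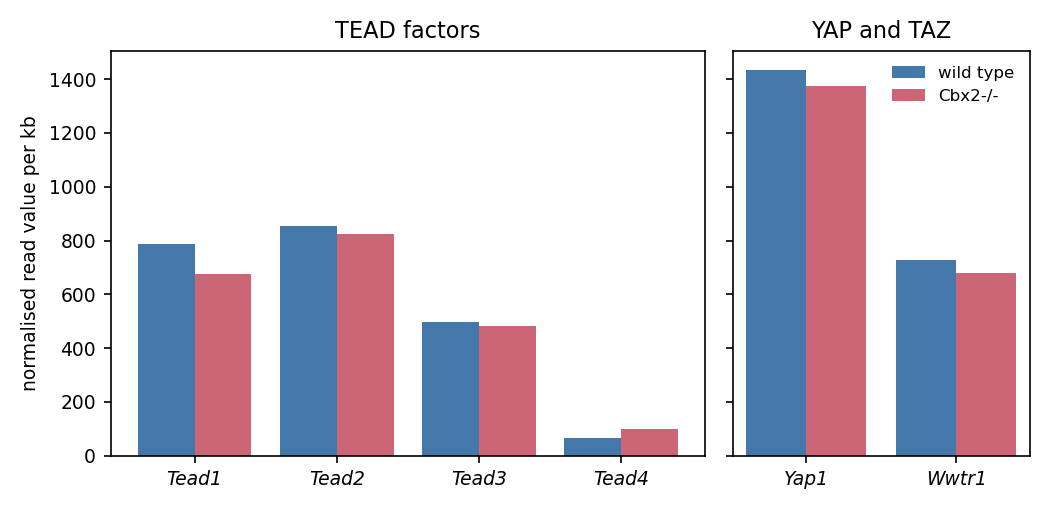
Normalised read value per kb of deposited transcript length for the TEAD factors (left) and for Yap1 and Wwtr1 (right), in wild type and Cbx2-/-; bars are the single value per genotype, without error. Tead4 went from 64.1 to 100.5 per kb and stayed the lowest of the TEAD factors.

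The 4 targets differed from each other in level far more than between genotypes. Ctgf (Ccn2 in RefSeq, gene 14219, chromosome 10 from 24595442 to 24598683), a secreted matrix protein of the CCN family that promotes fibrosis, went from 35936 to 38599, per the authors' deposited table. The log2 fold change of Ctgf was 0.10 ± 0.033 (implied SE; DESeq2 adjusted p 0.0237), a ratio of 1.07 with a 95% interval from 1.03 to 1.12. Its mean lies at percentile 99.8 of the table, and its implied standard error was the smallest of the 10. A long noncoding RNA, Gm15270, is annotated over part of Ctgf and was not analysed here. Whether the counting used strand is not given in the sources used here, so reads from both cannot be told apart.

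Cyr61 (Ccn1 in RefSeq, gene 16007, chromosome 3 from 145646971 to 145649985), the closest relative of Ctgf in this set and like it a matricellular protein, had values of 21972 and 22154 in the authors' deposited table. The log2 fold change of Cyr61 was 0.012 ± 0.035 (implied SE; DESeq2 adjusted p 0.969), with an interval of the ratio from 0.96 to 1.06. Amotl2 (gene 56332, chromosome 9 from 102717091 to 102733418), an angiomotin that binds YAP and restrains it, had values of 10246 and 10590 in the authors' deposited table, with an interval from 0.98 to 1.09 (DESeq2 adjusted p 0.803). Ankrd1 (gene 107765, chromosome 19 from 36111965 to 36119844), a nuclear ankyrin-repeat protein induced by stretch in muscle, had values of 819 and 813, with an interval from 0.87 to 1.14 (DESeq2 adjusted p 0.997). Of these targets only Ctgf passed the test, and its interval overlaps those of Cyr61, Amotl2 and Ankrd1.

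Per kb, Ctgf stood at 14862 in wild type and 15963 in knockout, and Cyr61 at 10834 and 10924. Amotl2 stood at 2445 and 2527 per kb, and Ankrd1 at 464 and 460. Ctgf thus exceeded Ankrd1 32.0 times per length in wild type and 34.7 times in knockout. The order of the 4 targets per length was the same in both genotypes.

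**Figure D3:**
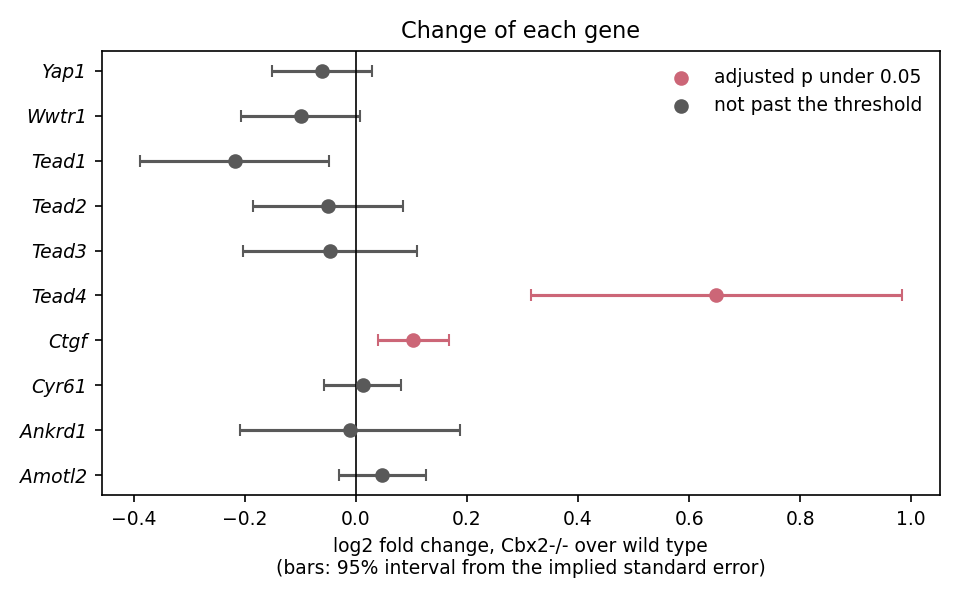
Log2 fold change of each gene, Cbx2-/- over wild type, from the authors' deposited table, with bars for the 95% interval from the implied standard error. Tead4 and Ctgf (coloured) passed an adjusted p of 0.05, with log2 fold changes of 0.65 and 0.10.

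How small a change could have passed differs between these genes. The largest p-value called in the authors' deposited table was 0.00387. At its implied standard error, Ctgf would have been called from a 1.07-fold change on, Cyr61 likewise from 1.07-fold, Amotl2 from 1.08-fold and Yap1 from 1.10-fold. Wwtr1 needed 1.12-fold, Tead2 1.15-fold, Tead3 1.17-fold, Tead1 1.19-fold and Ankrd1 1.22-fold. Tead4, the lowest of the 10, needed 1.41-fold. Expressed as a coefficient of variation per library, these errors corresponded to 2.26% for Ctgf and 11.8% for Tead4, with the other 8 between 2.45% and 6.99%. These percentages are worked back from the DESeq2 p-values and are not a spread measured between libraries. With 10% of spread added to each library neither gene was called (DESeq2-derived adjusted p 0.116 for Tead4 and 1.00 for Ctgf), and by Holm's adjustment neither was called either.

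The kinases that restrain YAP and TAZ did not pass the test. Of 7 genes of the kinase core, none was called, and their median log2 fold change was -0.014. All 7 lie at or above the median level, where 11.8% of genes were called, against 7.78% of all genes. In so short a list the absence of calls is not read as a result about the list. At an unadjusted DESeq2 p under 0.05 there was 1, Stk3, which encodes MST2, with values of 650 and 557 in the authors' deposited table (log2 fold change -0.22 ± 0.11, implied SE; adjusted p 0.318). Its paralogue Stk4, which encodes MST1, had values of 914 and 1027 (log2 fold change 0.17 ± 0.095, implied SE; DESeq2 adjusted p 0.440).

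Of 15 regulators upstream of the kinases, 2 fell and none rose, with a median of -0.015. That is 13.3% of the list, near the 11.8% called among all genes at or above the median level, where 14 of the 15 lie. Dchs1, the protocadherin that pairs with Fat4 between neighbouring cells, fell from 421 to 242 in the authors' deposited table (log2 fold change -0.80 ± 0.15, implied SE; DESeq2 adjusted p 4.11e-06). Wwc2, a relative of the scaffold KIBRA that activates LATS kinases, fell from 3146 to 2725 (log2 fold change -0.21 ± 0.066, implied SE; DESeq2 adjusted p 0.0264). The call of Wwc2 was lost when values were scaled by the sum of each genotype (adjusted p 0.116).

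Of 13 tested proteins that bind or retain YAP and TAZ or compete for TEAD, 2 rose and 1 fell, with a median of -0.027, and Vgll1 was not analysed here. The share called was 23.1%, against 7.78% of all genes and 11.8% of those at or above the median level, where 11 of the 13 lie. Amot, the founding angiomotin and relative of Amotl2, rose from 1029 to 1469, per the authors' deposited table (log2 fold change 0.51 ± 0.085, implied SE; DESeq2 adjusted p 7.87e-08). Ptpn14, a phosphatase that binds YAP, rose from 2791 to 3190 (log2 fold change 0.19 ± 0.065, implied SE; DESeq2 adjusted p 0.0425). With 10% of added spread neither Amot (DESeq2-derived adjusted p 0.077) nor Ptpn14 was called. Sfn, the 14-3-3 protein of epithelia, fell from 56.0 to 14.4 (log2 fold change -1.96 ± 0.42, implied SE; DESeq2 adjusted p 9.46e-05). The epithelial keratins Krt8 (98.0 to 7.48) and Krt18 (260 to 75.6) also fell. The other 5 epithelial markers tested had means under 5 and were not called. The part of the keratins in the fall of Sfn was not tested.

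Other targets of YAP and TAZ went both ways. Of 23 such genes 3 rose and 5 fell, and the median log2 fold change was 0.0075. The share called was 34.8%, against 7.78% of all genes and 11.8% of those at or above the median level, where 18 of the 23 lie. The balance of rises and falls turned with the scaling: 4 rose and 4 fell after re-centring on the median, and 4 rose and 3 fell after scaling by the sums. The list was chosen with earlier results of these data known, so these shares are descriptions. Those that rose were Areg, an EGF family ligand (77.0 to 130.4), Dock5, an activator of Rac (2810 to 3232), and Ptpn14, which is also counted above, in the authors' deposited table. Those that fell were Axl, a receptor tyrosine kinase (21546 to 18135), Igfbp3, an insulin-like growth factor binding protein (707 to 525), and Nt5e, the ectonucleotidase CD73 (76.6 to 31.4), together with Thbs1, thrombospondin (227642 to 195246), and Arhgef17 (6116 to 5545). Axl had the smallest adjusted p among them (log2 fold change -0.25 ± 0.036, implied SE; DESeq2 adjusted p 4.28e-10). Nt5e had the largest fall (-1.29 ± 0.34, implied SE; DESeq2 adjusted p 0.0027) and Areg the largest rise (0.76 ± 0.26, implied SE; DESeq2 adjusted p 0.0496). With 10% of added spread Nt5e alone of the 23 was still called (DESeq2-derived adjusted p 0.021), and Axl was not. Of the 23 genes 16 had a RefSeq window, and the TEAD letters were in the windows of 6 (37.5%). Of all 27025 genes with such a window 16.6% had them. No test of this difference was run, and the number of windows per gene was not compared.

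Of the 4 other genes of the CCN family, to which Ctgf and Cyr61 belong, 2 fell and none rose. That is 50% of the list, against 7.78% of all genes and 11.8% of those at or above the median level, where 3 of the 4 lie. In so short a list this share is not read as a result about the list. Wisp1 fell from 4534 to 3216 (log2 fold change -0.50 ± 0.055, implied SE; DESeq2 adjusted p 3.23e-17) and Wisp2 from 1552 to 1100 (-0.50 ± 0.079, implied SE; DESeq2 adjusted p 1.77e-08) in the authors' deposited table. Both encode secreted matricellular proteins best known as responding to Wnt signalling. With 10% of added spread neither was called (DESeq2-derived adjusted p 0.053 for Wisp1 and 0.087 for Wisp2). Their 95% intervals, from -0.60 to -0.39 and from -0.65 to -0.34 on the log2 scale, do not overlap those of Ctgf and Cyr61. The interval of Nov, from -0.037 to 0.22, does overlap them. A test between these genes was not run, since they share libraries, and Wisp1 and Wisp2 are set apart here because they were called. Nov had values of 2089 and 2222 and was not called (DESeq2 adjusted p 0.689), and Wisp3 was near 0 in both genotypes (0.511 and 0.507).

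Ctgf and Cyr61 also answer to SRF and its actin-sensing cofactors, the MRTFs. Of 11 genes of that group, all at or above the median level, 1 rose and 2 fell, with a median of -0.051. That is 27.3% of the list, against 11.8% of all genes at that level. Tpm1, a tropomyosin of stress fibres, rose from 43101 to 49284 (log2 fold change 0.19 ± 0.033, implied SE; DESeq2 adjusted p 2.92e-07) in the authors' deposited table. Cnn1, calponin, fell from 14369 to 12766 (-0.17 ± 0.037, implied SE; DESeq2 adjusted p 1.11e-04) and Mkl2, which encodes MRTF-B, from 1005 to 826 (-0.28 ± 0.096, implied SE; DESeq2 adjusted p 0.0414). Tpm1, Cnn1 and Mkl2 were not called with 10% of added spread. Mkl2 and, among the targets above, Arhgef17 were no longer called after re-centring on the median of all genes (adjusted p 0.0557 and 0.0846). Thbs1 was no longer called after scaling by the sums (adjusted p 0.0752). Over the 70 tested genes of the 6 lists, 5 rose and 12 fell, which is 24.3% of them, against 7.78% of all genes and 11.8% of those at or above the median level, where 61 of the 70 lie. Their median log2 fold change was -0.028, against 0.0036 for all genes and -0.011 for those at or above the median level. After scaling by the sums 6 rose and 8 fell. With 10% of added spread 0 rose and 3 fell.

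**Figure D4:**
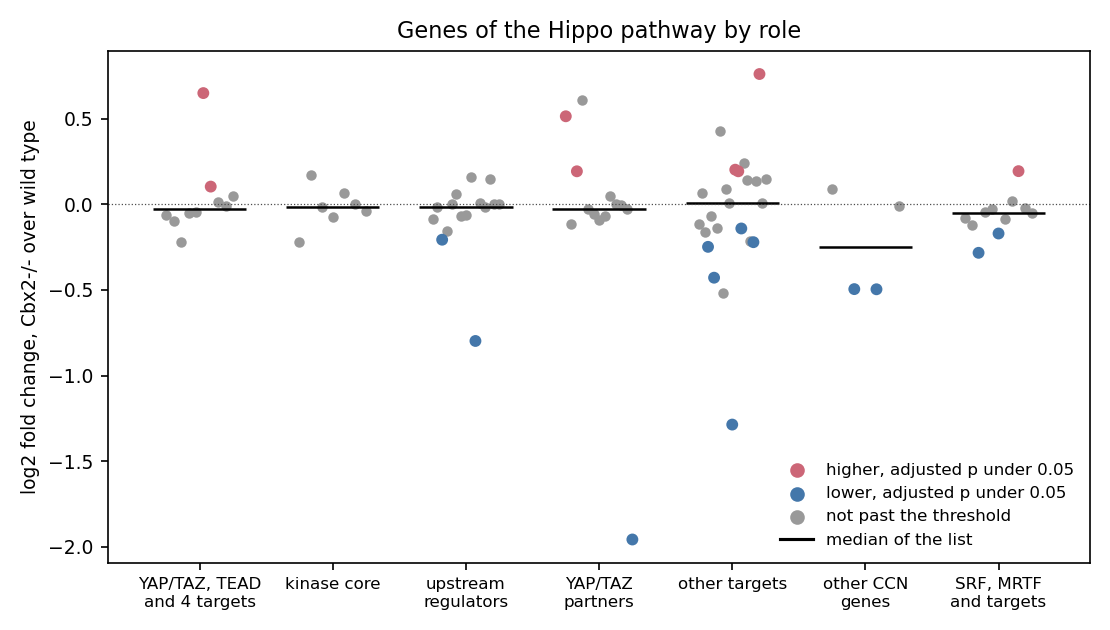
Log2 fold change, Cbx2-/- over wild type, of each tested gene by list. Points are genes, coloured where the adjusted p of the authors' deposited table was under 0.05, and lines are list medians. The other CCN genes and the SRF and MRTF genes are set beside the Hippo pathway and are not counted as parts of it. List medians lie between -0.25, for the 4 other CCN genes, and 0.0075, for the other targets.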

How the data were processed

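Mouse embryonic fibroblasts of 2 genotypes were profiled by RNA-seq in 2 libraries each. The tools named in the submitters' processing notes are RSEM, HISAT2, Bowtie2 and DESeq2, with the mm10 build and without versions or settings. The authors deposited 1 normalised read signal per genotype and gene, with the log2 fold change, p-value and adjusted p-value of their DESeq2 comparison, per the file headers. The log2 fold changes equal the log2 ratio of the deposited signals to within 9.13e-09, and the adjusted values equal a Benjamini-Hochberg adjustment to within 1.33e-06. Fold changes of genes with few reads are drawn toward 0: the 900 genes with a mean under 0.3, which take only 4 distinct mean values, have values above 0 in both genotypes and log2 changes of at most 0.117. The size of this effect at the levels of the 10 genes was not measured.

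The table holds no counts per library, so that the planned count test gave way to the authors' DESeq2 test. Implied standard errors are the fold change divided by the normal quantile of its p. Levels per kb use the deposited length. Coordinates come from RefSeq GRCm38.p6, matched by gene identifier (17400 of 17441). Genes named are the 10, Cbx2, up to 6 called genes per direction of each pathway list, and the 2 of smallest p where none was called; markers named are from fixed lists. Genes and lists were chosen with earlier results of these data known, so counts over them are descriptions. The calculations of standard errors, adjustment and calls were run on data simulated from the same normal model. That checks the arithmetic, and cannot show whether the model fits the deposited p-values. Python 3.11.15, pandas 2.3.3 and scipy 1.17.1 were used. The alternatives were a filter on low values, a 2-fold minimum, Holm's adjustment, added spread and 2 rescalings.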

Additional observations from a re-analysis of the deposited data

How the results depend on the processing

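Among the 10 genes, 2 were called higher with genes limited to those at or above the median level, after re-centring on the median change (a shift of 0.011 on the log2 scale) and after scaling by the sum of each genotype (a shift of 0.039), and none was called lower in any setting. The number called higher was 0 with a 2-fold minimum, with Holm's adjustment and with 10% or 20% added spread. Over the 70 genes of the 6 lists, which include the other CCN genes and the SRF and MRTF genes, 5 were called higher and 12 lower in the deposited test. The numbers were 0 and 2 with a 2-fold minimum, 2 and 4 by Holm, 0 and 3 with 10% and 0 and 1 with 20% added spread. They were 6 and 10 after re-centring on the median and 6 and 8 after scaling by the sums. Over all genes the calls were 1357 in the deposited test, 294 with a 2-fold minimum and 550 by Holm. With added spread they were 425 at 10% and 125 at 20%. Re-centring on the median gave 1328 calls and scaling by the sums 1329. The sign of Ankrd1, which is near 0, changed with re-centring (0.00021) and with scaling by sums (0.028). No replicate could be left out, and a count model or another normalization could not be run, because values per library are not given for these genes. No paired analysis was possible because the table has 1 column per genotype and its columns carry no replicate numbers. Adjusted p ranged from 0.0013 to 1 for Tead4 and from 3.68e-04 to 1 for Ctgf over the alternatives.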

Other observations

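The annotation deposited with the table marks 20 genes as hippo signaling, of which 5 are among the 10 genes described and 14 are in the pathway lists. This set, taken after the data were seen, held 1 gene that rose, Amot, and 1 that fell, Dchs1, in the authors' deposited table, which is 10% of the set, against 7.78% of all genes and 11.8% of those at or above the median level, where all 20 lie. Its median log2 fold change was -0.028.

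Of the genes in the table with a RefSeq start-site window, 2041 had the TEAD letters in at least 1 window and 11580 had none. Of the former 77 rose and 103 fell (8.82% called), and of the latter 362 rose and 461 fell (7.11% called), by the calls of the authors' deposited table. Among genes at or above the median level the shares called were 14.4% of 987 and 10.6% of 6057. The median log2 fold changes there were -0.0052 and -0.010. No test of this difference was run, and GC content and the number of windows per gene were not compared.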
